A study of Mus musculus with 2 samples.

Results

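The genes described here are 8 genes known as markers of subplate neurons: Nr4a2, Cplx3, Nxph4, Lpar1, Hs3st4, Tmem163, Moxd1 and Inpp4b. They were chosen by name, from knowledge of the developing cortex and with earlier results of these data known. All 8 were found among the 24411 genes counted. The subplate is a thin layer of early-born neurons beneath the cortical plate and above the white matter. Its neurons are among the first of the cortex to mature and to form synapses, they receive thalamic axons that wait below the plate, and many are lost after birth, the survivors forming layer 6b.

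RNA was measured by laser capture microdissection, in which chosen pieces of a stained section are cut out with a laser, followed by bulk RNA sequencing of fresh-frozen mouse brain at embryonic day 16.5. Of the 2 libraries, 1 came from the SVZ (subventricular zone), where progenitors divide near the lateral ventricle, and 1 from the cortex, where the neurons settle. The labels name no treatment, and both areas were cut to match the areas illuminated in a barcoding experiment on the same regions. The sources used here do not give strain, genotype, sex or the number of embryos per library, nor do they state whether the subplate band fell inside either outline. Reads assigned to genes numbered 51435667 for SVZ and 22050693 for cortex, so that 1 read was worth 0.0194 and 0.0453 CPM (reads per 1000000 gene-assigned reads). A count of 0 was set at 3 reads, or 0.0583 and 0.136 CPM, while its exact 95% interval reached 0.0717 and 0.167 CPM. With 1 library per area, no difference has a replicate check, no test between areas was possible, and the intervals given are exact 95% intervals for counting error only. They treat each read as an independent count, though the study's methods describe no removal of reads copied in amplification. The areas were described by defining markers, in lists chosen with earlier results of these data known. The 9 apical and 6 intermediate progenitor genes that reached a mean of 1 CPM were all at least 4-fold higher in SVZ. Of 9 layer 6 genes, 7 were at least 4-fold higher in cortex. Among all 12738 genes that reached this mean, the shares were 10.2% and 7.01%. Pax6, Eomes and Neurog1 were under 1 CPM in cortex, and Ntsr1 and Crym under 1 CPM in SVZ. These genes reached the mean through the other library alone, so a difference was built into their entry. The cortex library was low in progenitor reads (135 CPM summed over 10 apical progenitor genes, against 6638 CPM in SVZ), but the SVZ library held neuronal reads too (4253 CPM summed over 10 pan-neuronal genes, against 13056 CPM).

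The stretches of DNA before the start sites of the genes are shown first, because those of Nr4a2 and Hs3st4 were the richest in GC and CpG among the 9 windows of these genes. Of the 8 genes 7 were matched, and Nxph4 was not. The windows are the 250 bases before a RefSeq start site (GRCm38.p6), written 5′ to 3′ along the gene, and capitals mark the GC box GGGCGG or its reverse CCGCCC, which SP-family factors bind. Nr4a2 and Hs3st4 are the pair higher in cortex, and Lpar1 (the middle of its 3 listed starts) and Moxd1 were higher in SVZ.
Nr4a2 (chr2:57124004-57124253, minus strand): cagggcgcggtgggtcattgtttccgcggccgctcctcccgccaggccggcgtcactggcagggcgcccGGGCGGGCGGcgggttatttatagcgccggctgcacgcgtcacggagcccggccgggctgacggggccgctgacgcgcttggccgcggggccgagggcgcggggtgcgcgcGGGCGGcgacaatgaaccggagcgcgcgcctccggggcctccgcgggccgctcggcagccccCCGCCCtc
Hs3st4 (chr7:123982578-123982827, plus strand): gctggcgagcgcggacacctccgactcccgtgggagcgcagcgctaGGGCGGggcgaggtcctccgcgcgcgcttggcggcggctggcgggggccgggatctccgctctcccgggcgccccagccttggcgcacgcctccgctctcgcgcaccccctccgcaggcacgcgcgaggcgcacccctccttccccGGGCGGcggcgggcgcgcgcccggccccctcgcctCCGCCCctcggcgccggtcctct
Lpar1 (chr4:58553294-58553543, minus strand): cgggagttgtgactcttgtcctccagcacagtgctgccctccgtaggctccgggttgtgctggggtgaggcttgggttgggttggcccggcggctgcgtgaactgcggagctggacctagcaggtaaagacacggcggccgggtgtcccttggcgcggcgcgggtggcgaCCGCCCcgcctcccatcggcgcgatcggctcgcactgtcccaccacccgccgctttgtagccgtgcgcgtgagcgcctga
Moxd1 (chr10:24223267-24223516, plus strand): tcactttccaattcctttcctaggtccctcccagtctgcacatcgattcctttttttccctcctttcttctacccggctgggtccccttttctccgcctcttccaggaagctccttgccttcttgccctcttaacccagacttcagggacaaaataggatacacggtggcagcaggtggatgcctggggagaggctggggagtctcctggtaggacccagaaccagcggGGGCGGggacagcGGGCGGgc
The Nr4a2 window had a GC content of 80% with 44 CpG dinucleotides and 4 GC boxes, and the Hs3st4 window 82% with 43 CpG and 3 GC boxes. The Moxd1 window had 58.4% and 8 CpG with 2 GC boxes, and the Tmem163 window 58.8% and 8 CpG with 0. The 3 Lpar1 windows held 11, 28 and 3 CpG at 62%, 70% and 41.6% GC, that of Inpp4b 19 at 66% and that of Cplx3 9 at 62.8%. Over 32851 windows of the same length the median was 52.4% GC and 6 CpG, 62.2% had under 10 CpG, and 32.7% held a GC box. A GC box was thus common everywhere, and CpG number was highest in the windows of both genes with 4-fold or higher cortex levels, a description of very few genes. The NR4A response element AAAGGTCA, searched on both strands, was in 0 of the 9 windows of these genes and in 1.34% of all windows. The T-box element AGGTGTGA was likewise in 0 of 9, and in 1.12% of all.

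The genes did not share a direction. Of the 8, 7 reached a mean of 1 CPM over both libraries, and of these Hs3st4 and Nr4a2 were at least 4-fold higher in cortex, whereas Lpar1, Tmem163 and Moxd1 were at least 4-fold higher in SVZ. Nxph4 and Inpp4b lay within 4-fold, and Cplx3 had no read in either library. A gene under 1 CPM in 1 library reached this mean through the other alone, so a difference was built into its entry. This held for Hs3st4, at 0.0583 CPM in SVZ, and for Moxd1, without cortex reads. Among all 12738 genes that reached this mean, 7.01% were at least 4-fold higher in cortex and 10.2% at least 4-fold higher in SVZ. The median log2 ratio (SVZ over cortex) of the 7 genes was -0.46, with the bound of Moxd1 taken as its value, beside 0.11 for all 12738 genes. The counting interval excluded equal CPM for 6 of the 7, a share to be read against 86.8% of all 12738 genes. In bulk libraries fewer cells of a type and less RNA per cell cannot be told apart, which holds for each value below.

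**Figure D1:**
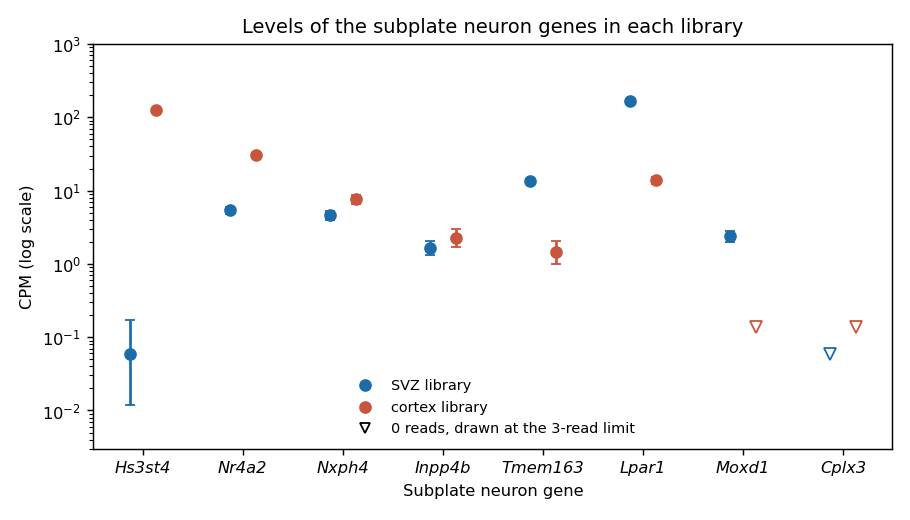
CPM on a log axis for the 8 subplate neuron genes in SVZ (blue) and the cortex library (red), with 1 library per area, bars for exact 95% Poisson intervals of the counts, and open triangles for 0 reads drawn at the 3-read limit. Hs3st4 stood at 127 CPM in cortex and 0.0583 CPM in SVZ, Lpar1 at 13.7 and 169 CPM, and Cplx3 had no read in either.

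Nr4a2 (ENSMUSG00000026826; GRCm38 chromosome 2, 57106830 to 57124003, minus strand) codes for the orphan nuclear receptor NURR1, a transcription factor best known for its part in midbrain dopamine neurons and a marker of subplate and claustrum in the pallium. It had 277 reads in SVZ and 665 in cortex, or 5.39 and 30.2 CPM. The cortex level was 5.60-fold higher, a log2 ratio of -2.49 (interval -2.69 to -2.28), and 625 of the 12738 genes had a lower ratio. The intervals of the levels did not overlap, and the whole interval of the ratio lay past 4-fold. Its close relative Nr4a3 had 0 SVZ reads and 704 cortex reads (31.9 CPM), 547-fold higher in cortex with the SVZ count taken at 3 reads. The interval of its log2 ratio (-9.10) ended at -8.79. Nr4a1, an immediate early gene of the same family, had 0 and 5 reads. Per kilobase of merged exon, Nr4a2 (7.43 RPKM, interval 6.88 to 8.02) stood above Nr4a3 (5.33, 4.95 to 5.74) in cortex. This order rests on the merged exon lengths, 4059 and 5987 bases, whose error the intervals do not hold. In CPM the cortex intervals overlapped, at 27.9 to 32.5 for Nr4a2 and 29.6 to 34.4 for Nr4a3. In SVZ Nr4a2 was the only NR4A gene with reads, at 1.33 RPKM.

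Genes known from the claustrum, where Nr4a2 is also expressed, were read beside it. Of 5 such genes 4 reached 1 CPM, and 3 of these were higher in cortex. Gng2, a G protein subunit gene, had log2 ratio -1.99 and Gnb4 -1.40, whereas Lxn, a carboxypeptidase inhibitor gene, had 1.23. The kappa opioid receptor gene Oprk1 had 0 reads in both libraries. The summed level of the list was 339 CPM in SVZ and 1009 CPM in cortex, and its part in the Nr4a2 difference was not tested.

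Hs3st4 (ENSMUSG00000078591; chromosome 7, 123982869 to 124398989, plus strand) codes for a heparan sulfate 3-O-sulfotransferase, a Golgi enzyme that adds a rare sulfate group to heparan sulfate chains. It had 3 reads in SVZ and 2803 in cortex, or 0.0583 and 127 CPM. The log2 ratio was -11.09 (-13.37 to -9.54), and 3 of 12738 genes had a lower one when genes without SVZ reads were taken at their bounds, so its exact rank is not known. Of the family of 7 enzymes, 5 reached 1 CPM and 4 of these were at least 4-fold higher in cortex, beside 7.01% of all 12738 genes. Hs3st4, Hs3st3b1 and Hs3st2 were under 1 CPM in SVZ and passed this minimum through the cortex library alone. A difference was thus built into their entry. Hs3st3b1 had 10 and 1432 reads (log2 ratio -8.38, -9.45 to -7.50), Hs3st2 26 and 446 (-5.32, -5.95 to -4.75) and Hs3st5 379 and 809 (-2.32, -2.50 to -2.14). Hs3st1 stood on the other side with 6558 and 1067 reads (1.40, 1.30 to 1.49). Hs3st3a1 (0 and 12 reads) and Hs3st6 (0 and 5 reads) were under 1 CPM, and Hs3st3a1 shares a near-identical stretch with Hs3st3b1, so that reads of the pair may have been left out.

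Per length the enzymes changed places between the areas. In the SVZ library Hs3st1 led at 57.2 RPKM (55.8 to 58.6), followed at a distance by Hs3st5 at 1.70 RPKM, and Hs3st4 was at 0.0183 RPKM. In the cortex library Hs3st4 led at 39.9 RPKM (38.4 to 41.4), ahead of Hs3st1 at 21.7 RPKM (20.4 to 23.0), Hs3st3b1 at 13.2 and Hs3st5 at 8.45 RPKM. The other enzymes that modify heparan sulfate did not move as one: of 11 listed, 9 reached 1 CPM, with 5 higher in SVZ and 4 in cortex, a split of 3 and 6 under TMM, upper-quartile and DESeq2 scaling. Their median log2 ratio was 0.03, and under these scalings between -0.06 and -0.07. Hs6st2, a 6-O-sulfotransferase gene, had the most reads, 4432 and 6340, with log2 ratio -1.74 (-1.79 to -1.68). Hs2st1 had 2686 and 736 reads (0.65, 0.53 to 0.77), Ndst1 1828 and 658 (0.25, 0.12 to 0.38) and Ndst3 1809 and 155 (2.32, 2.09 to 2.57).

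**Figure D2:**
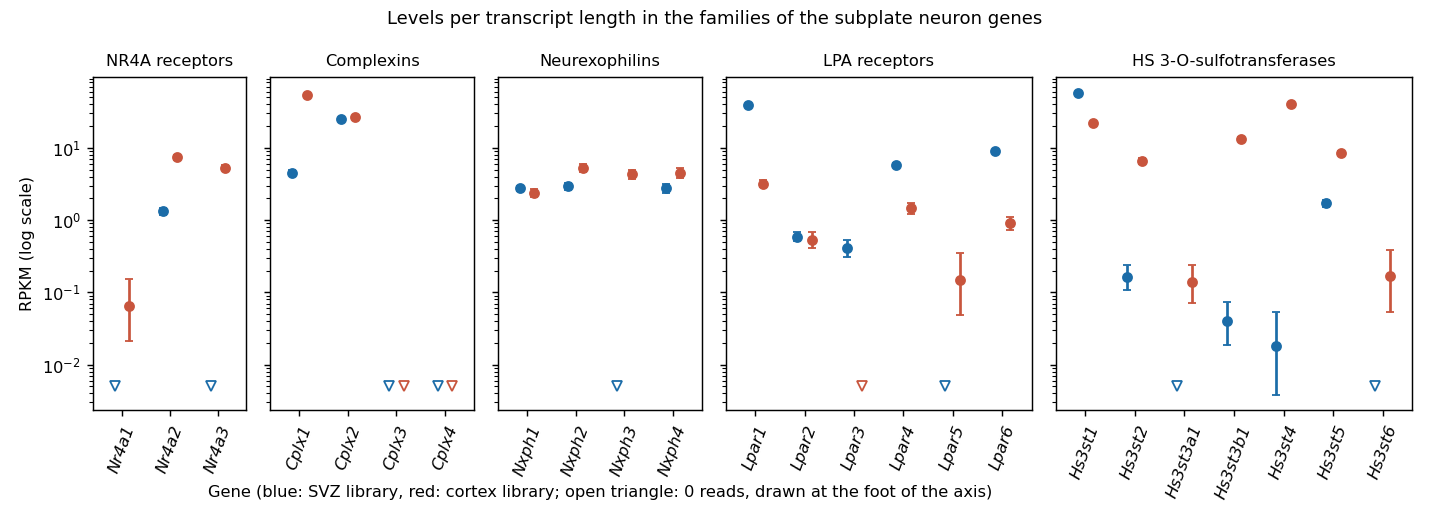
RPKM on a log axis (CPM per kilobase of merged exon) for the genes of 5 families that hold a subplate neuron gene, SVZ library in blue and cortex library in red, with bars for exact 95% counting intervals and open triangles for 0 reads at the foot of the axis. Hs3st4 led its family in cortex at 39.9 RPKM and Lpar1 led the LPA receptors in SVZ at 39.3 RPKM, whereas Nxph4 was at 2.74 and 4.52 RPKM.

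Lpar1 (ENSMUSG00000038668; chromosome 4, 58435255 to 58553898, minus strand) codes for a G protein-coupled receptor of lysophosphatidic acid (LPA), a signalling lipid. It was first isolated as a gene of the cortical ventricular zone and is also known from oligodendrocytes. It had 8675 reads in SVZ and 303 in cortex, or 169 and 13.7 CPM. The SVZ level was 12.3-fold higher, a log2 ratio of 3.62 (3.45 to 3.79), opposite to Hs3st4 and Nr4a2, and 629 of the 12738 genes had a higher ratio.

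The other LPA receptors did not all follow Lpar1. Of 6 receptor genes 4 reached 1 CPM, all with the higher CPM in SVZ, though only Lpar1 and Lpar6 passed 4-fold. Of all 12738 genes, 10.2% were at least 4-fold higher in SVZ. Lpar6 had 2471 and 107 reads (3.31, 3.03 to 3.60) and Lpar4 1264 and 136 (1.99, 1.74 to 2.26). Lpar2 had 177 and 69 reads, and its interval of -0.27 to 0.56 held equal CPM. Under the minimum, Lpar3 had 52 and 0 reads, and Lpar5 was on the cortex side with 0 and 5. Summed over the receptors the level was 246 CPM in SVZ and 28.1 CPM in cortex, and Lpar1 was the highest per length in both, at 39.3 and 3.20 RPKM, ahead of Lpar6 (8.90 RPKM) in SVZ and Lpar4 (1.46 RPKM) in cortex.

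The list of LPA metabolism held 4 genes of enzymes that make or break down LPA and 5 of the related plasticity-related proteins, which lack that catalytic activity. Of the 9 genes, 2 were higher in SVZ and 7 in cortex, and all 5 plasticity-related genes were among the latter. Enpp2, which codes for autotaxin, the enzyme that makes extracellular LPA, had 730 and 139 reads (1.17, 0.91 to 1.44), on the side of its receptor. Plpp3, a lipid phosphatase gene that ends LPA signals, had 7264 and 535 reads (2.54, 2.41 to 2.67). Among the plasticity-related genes, Plppr1 had 4438 and 3490 reads (-0.88, -0.94 to -0.81) and Plppr3 1555 and 1934 (-1.54, -1.63 to -1.44). Plppr5, with 136 and 1210 reads (-4.38, -4.64 to -4.12), and Plppr4, with 65 and 701 (-4.65), were the pair past 4-fold. Of all 12738 genes, 7.01% were at least 4-fold higher in cortex.

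Other cell types that carry Lpar1 were read beside it. Of 7 oligodendrocyte lineage genes 5 reached 1 CPM, 1 higher in SVZ and 4 in cortex, with a median log2 ratio of -0.13 and summed levels of 21.2 and 25.3 CPM. Pdgfra, a marker of oligodendrocyte precursors, had 302 and 142 reads (-0.13, -0.43 to 0.16), so that no difference in it was detectable at this depth. Apical progenitor genes moved with Lpar1, with 9 of 10 passing the 1 CPM minimum and a median log2 ratio of 4.28. All 9 were at least 4-fold higher in SVZ, as were 10.2% of all 12738 genes. Microglial genes moved with Lpar1 too at a lower level, with 7 of 7 higher in SVZ and summed levels of 52.5 and 5.85 CPM. Pax6 and the microglial genes Aif1, Cx3cr1, C1qa, C1qb and Tmem119 were under 1 CPM in cortex. They passed the minimum through the SVZ library alone, so a difference was built into their entry. The part of these cell types in the Lpar1, Tmem163 and Moxd1 differences was not tested.

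Tmem163 (ENSMUSG00000026347; chromosome 1, 127486546 to 127679548, minus strand) codes for a zinc-transporting membrane protein of synaptic vesicles and lysosomes. It had 695 reads in SVZ and 32 in cortex, or 13.5 and 1.45 CPM. The SVZ level was 9.31-fold higher, a log2 ratio of 3.22 (2.71 to 3.78). Among the related zinc exporters of the SLC30 family, 7 of 10 reached 1 CPM and 1 of these was 4-fold apart: Slc30a10, with 2755 and 229 reads (2.37, 2.17 to 2.57). Of all 12738 genes, 10.2% were at least 4-fold higher in SVZ. The more widely used exporters were close to even, with Slc30a9 at -0.11 (4959 and 2292 reads) and Slc30a5 at 0.07 (3179 and 1297 reads), the latter changing side under TMM, upper-quartile and DESeq2 scaling. Slc30a7 had a log2 ratio of 0.67 (2679 and 722 reads). Slc30a3, the vesicular zinc transporter gene of glutamate synapses, had only 9 and 26 reads.

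Moxd1 (ENSMUSG00000020000; chromosome 10, 24223517 to 24302790, plus strand) codes for a monooxygenase related to dopamine beta-hydroxylase. It had 122 reads in SVZ, 2.37 CPM, and 0 in cortex. With the cortex count taken at 3 reads it was 17.4-fold higher in SVZ, and the interval of its log2 ratio (4.12) began at 3.80. It passed the 1 CPM minimum through the SVZ library alone, at a mean of 1.19 CPM, so a large difference was built into its entry, and with a pseudocount of 1 CPM its log2 ratio was 1.75, under 4-fold. Of the related copper monooxygenases, Pam, which amidates neuropeptides, had 3779 and 507 reads (1.68, 1.54 to 1.81), and Dbh had 0 reads in both libraries.

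Nxph4 (ENSMUSG00000040258; chromosome 10, 127525473 to 127534559, minus strand) codes for a neurexophilin, a secreted glycoprotein that binds alpha-neurexins on axon terminals. It had 236 reads in SVZ and 167 in cortex, or 4.59 and 7.57 CPM. The cortex level was 1.65-fold higher, with a log2 ratio of -0.72 (-1.02 to -0.43), beyond counting error but well within 4-fold. Nxph2 was alike, with 389 and 300 reads (-0.85, -1.07 to -0.63), and the interval of Nxph1 (672 and 252 reads, -0.02 to 0.41) held equal CPM. Nxph3, known from layer 6b, was unlike them, with 0 and 198 reads. With the SVZ count taken at 3 reads its cortex level was 154-fold higher, and the interval of its log2 ratio ended at -6.955. Per length, Nxph2 (5.28 RPKM, 4.70 to 5.91), Nxph4 (4.52, 3.86 to 5.26) and Nxph3 (4.28, 3.70 to 4.92) could not be ordered beyond counting error in cortex, nor could Nxph2, Nxph1 and Nxph4 in SVZ, at 2.93, 2.75 and 2.74 RPKM. Of the neurexin receptors, Nrxn2 had 1361 and 2581 reads (-2.15, -2.24 to -2.05), at least 4-fold higher in cortex. Nrxn3 was higher in SVZ, with 2093 and 457 reads (0.97, 0.83 to 1.12).

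Inpp4b (ENSMUSG00000037940; chromosome 8, 81342556 to 82127914, plus strand) codes for a lipid phosphatase that acts on a phosphoinositide made downstream of PI3 kinase. It had 85 reads in SVZ and 50 in cortex, or 1.65 and 2.27 CPM. The interval of its log2 ratio, -0.46, ran from -0.98 to 0.08, so that no difference was detectable at this depth. Its relative Inpp4a was read more and was 3.22-fold higher in cortex, with 1917 and 2650 reads (-1.69, -1.77 to -1.60). Of 11 phosphoinositide phosphatase genes 9 reached 1 CPM, all within 4-fold, with 3 higher in SVZ and 6 in cortex, a split of 2 and 7 under TMM, upper-quartile and DESeq2 scaling. Inpp5f had the most reads, 25249 and 35261 (-1.70, -1.73 to -1.68), followed by Synj1, 3140 and 2381 (-0.82, -0.90 to -0.75).

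Cplx3 (ENSMUSG00000039714; chromosome 9, 57599992 to 57606281, minus strand) codes for a complexin, a small protein that binds the SNARE complex and sets when synaptic vesicles fuse. Complexin 3 is known from subplate neurons and from the ribbon synapses of the retina. It had 0 reads in both libraries, in the column that ignores strand and in the stranded columns alike, which allowed up to 0.0583 CPM in SVZ and 0.136 CPM in cortex. Cplx4, its nearest relative, had 0 reads as well. The more widespread complexins were read: Cplx1 had 509 and 2564 reads (log2 ratio -3.55, -3.69 to -3.42) and Cplx2 6246 and 2882 (-0.11, -0.17 to -0.04). Genes of the SNARE machinery were at hand in both areas and higher in cortex, 6 of the 6 that reached 1 CPM, though the interval of Vamp1 (52 and 29 reads, -1.06 to 0.33) held equal CPM. Snap25 had 5841 and 10468 reads (-2.06, -2.11 to -2.02) and Syt1 849 and 4133 (-3.51, -3.61 to -3.40).

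Ordered by level per length in SVZ, the genes ran from Lpar1 (39.3 RPKM) through Tmem163 (3.15), Nxph4 (2.74), Nr4a2 (1.33), Moxd1 (0.742) and Inpp4b (0.127) to Hs3st4 (0.0183) and Cplx3 (0). The intervals of neighbours overlapped for Tmem163 and Nxph4 alone, leaving aside Cplx3. In the cortex library the order was Hs3st4 (39.9 RPKM), Nr4a2 (7.43), Nxph4 (4.52), Lpar1 (3.20), Tmem163 (0.338) and Inpp4b (0.174), with 0 for Moxd1 and Cplx3. There no neighbours with reads overlapped, though Tmem163 (0.231 to 0.477) and Inpp4b (0.129 to 0.229) nearly met. The exon length of Inpp4b, 13066 bases merged over 15 transcripts, may exceed that of the transcripts present, which lowers its RPKM.

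**Figure D3:**
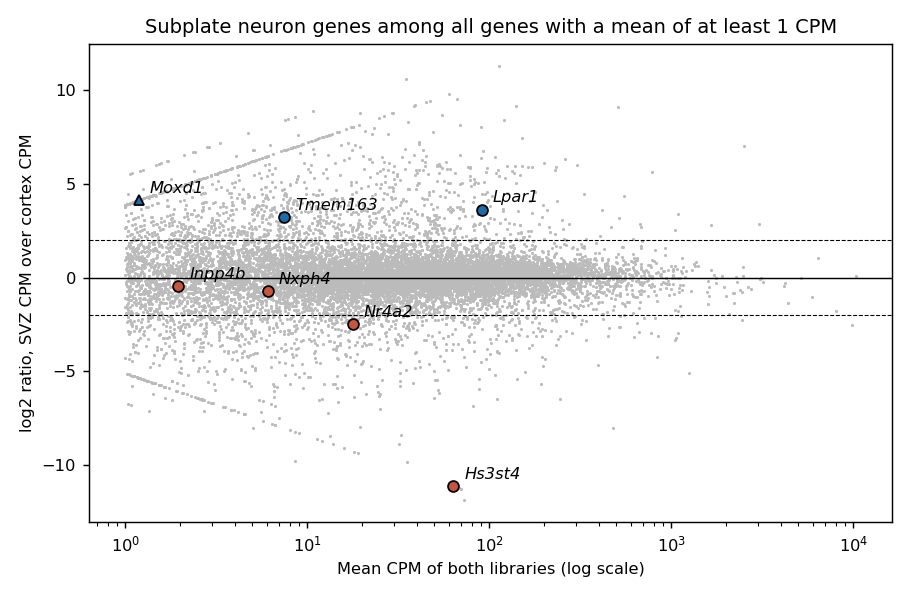
The log2 ratio (SVZ CPM over cortex CPM) against the mean CPM of both libraries (log axis) for the 12738 genes whose mean reached 1 CPM (grey), with the 7 subplate neuron genes that passed marked and dashed lines at 4-fold. Hs3st4 lies near the lower edge at -11.09, Nxph4 and Inpp4b lie inside the lines at -0.72 and -0.46, and Moxd1 (triangle) is a bound at 4.12.

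As a description of other genes of the layer, 14 further genes known from subplate neurons or layer 6b were read. This list was chosen with earlier results of these data known, so it is no independent check of the division. Of these 11 reached 1 CPM, 9 higher in cortex and 2 in SVZ, and their median log2 ratio was -4.72, beside -0.46 for the 7 genes above. At least 4-fold higher in cortex were 7, and in SVZ 1, beside 7.01% and 10.2% of all 12738 genes. Drd1, Pde1a, Nxph3, Abca8a and Kcnab1 were under 1 CPM in SVZ and passed the minimum through the cortex library alone. Svil, the gene 4-fold higher in SVZ, passed it through the SVZ library alone. A difference was thus built into these entries, and the counts and the median carry it. Drd1, a dopamine receptor gene, had 0 and 380 reads, Pde1a, a calmodulin-dependent phosphodiesterase gene, 0 and 253, and Nxph3 0 and 198. With the SVZ counts taken at 3 reads the cortex levels were 295-fold, 197-fold and 154-fold higher. The intervals of these log2 ratios ended at -7.90, -7.31 and -6.955. Abca8a, a lipid transporter gene, had 12 and 286 reads (-5.80, -6.77 to -4.97), Kcnab1, a potassium channel subunit gene, 10 and 197 (-5.52, -6.60 to -4.61), and Gabra5, a GABA-A receptor subunit gene, 84 and 948 (-4.72, -5.06 to -4.40). Zfpm2, a GATA cofactor gene, had 292 and 1209 reads (-3.27, -3.46 to -3.09).

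Some further genes differed less or stood on the other side. Serpini1, the neuroserpin gene, had 10242 and 9083 reads (-1.05, -1.09 to -1.01), Pls3, an actin-bundling protein gene, 3313 and 2194 (-0.63, -0.71 to -0.55), and Cdh10, a cadherin gene, 3872 and 1286 (0.37, 0.28 to 0.46). Svil, the supervillin gene and the one 4-fold higher in SVZ, had 102 and 5 reads (3.13, 1.86 to 4.78), and like Moxd1 it passed the 1 CPM minimum through the SVZ library alone. Ccn2, formerly Ctgf and one of the genes most used to mark the subplate, had 61 and 2 reads (3.71, 1.79 to 6.79) and a mean of 0.638 CPM, under the minimum. Cdh18 had 4 and 30 reads, also under it, and Adra2a had 0 in both. By direction alone, Ccn2 sat with Moxd1, Lpar1 and Tmem163, whereas most of the list sat with Hs3st4 and Nr4a2.

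**Figure D4:**
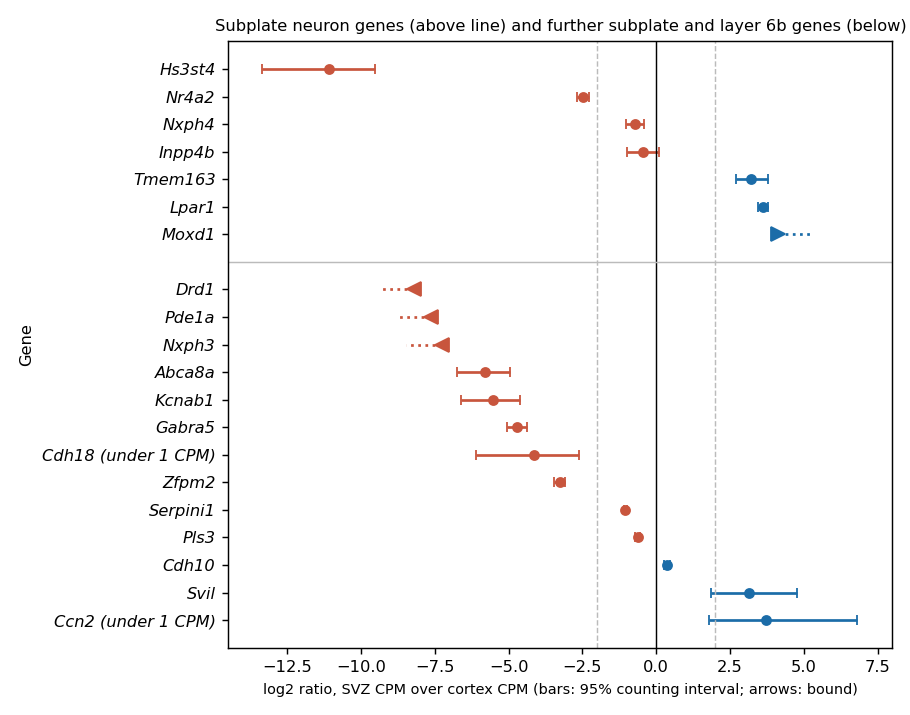
The log2 ratio (SVZ CPM over cortex CPM) for 7 subplate neuron genes (above the line) and 13 further subplate and layer 6b genes (below), red for higher in cortex and blue for higher in SVZ, with exact 95% counting intervals, arrows for bounds and dashed lines at 4-fold. The ratios run from -11.09 for Hs3st4 to 4.12 for Moxd1, with the 0 cortex reads of Moxd1 taken at 3.

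Lists for the neighbouring layers give the setting. Of 9 layer 6 genes 9 were higher in cortex, with a median log2 ratio of -2.39. Rprm had 2816 and 6331 reads (-2.39), Fezf2 3069 and 5676 (-2.11), Tle4 1433 and 5032 (-3.03) and Tbr1, which subplate neurons also express, 2433 and 4827 (-2.21). Nr4a2 at -2.49 lay within the span of these layer 6 ratios, from -9.34 to -0.99, whose low end is the bound of a gene without SVZ reads, so Hs3st4 cannot be placed against it. Of 6 layer 5 genes 4 were higher in cortex, with a median of -2.20, and of 8 upper-layer genes 2, with a median of 0.74. The upper-layer genes nevertheless summed to 1809 CPM in SVZ and 3285 CPM in cortex, of which Mef2c held 72.75 and 2435 CPM. The 10 pan-neuronal genes were all higher in cortex, with a median of -1.54, so that the cortex side of Hs3st4 and Nr4a2 moved with neuronal genes in general, whose part was not tested. Cajal-Retzius genes, which mark the other early-born population, were low, with 2 of 6 reaching 1 CPM and summed levels of 3.81 and 31.5 CPM. Reln had 127 and 610 reads (-3.49, -3.77 to -3.21), and Lhx1 and Lhx5 had 0 in both. Meningeal genes summed to 4.59 and 9.39 CPM and endothelial and pericyte genes to 139 and 105 CPM. Interneuron genes summed to 154 and 514 CPM, of which Npy held 14.3 and 379 CPM.

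**Figure D5:**
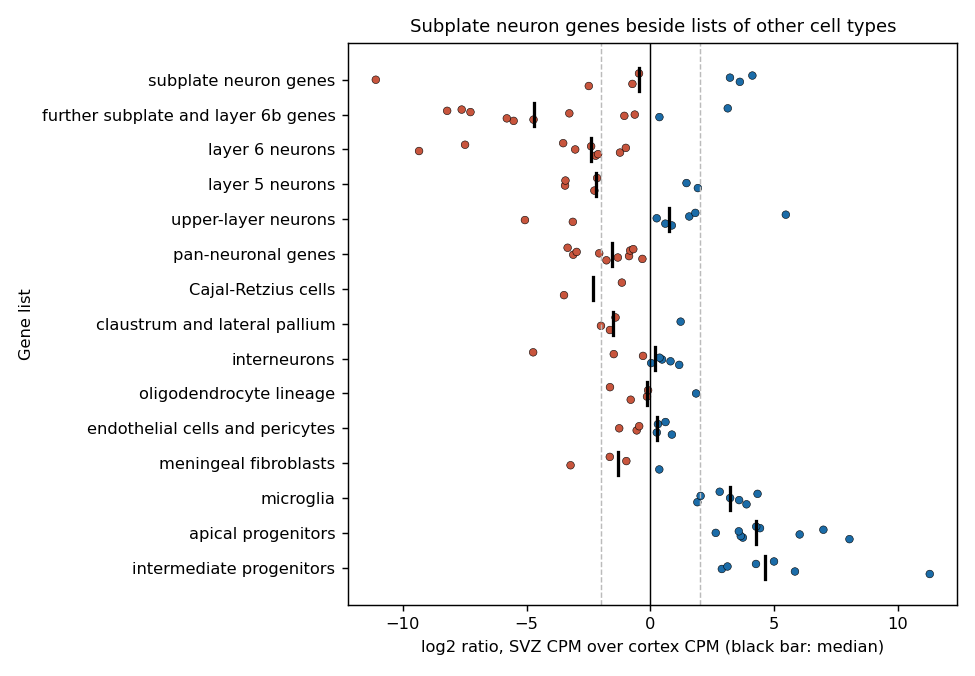
The log2 ratio (SVZ CPM over cortex CPM) of each gene whose mean reached 1 CPM in the subplate neuron genes and in 14 other lists, with a black bar at each median, bounds drawn at their value and dashed lines at 4-fold. The subplate neuron genes spread from -11.09 to 4.12 around a median of -0.46, the 9 layer 6 genes lie from -9.34 (a bound) to -0.99, and the 9 apical progenitor genes lie from 2.64 to 8.05.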

How the data were processed

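RNA from 2 microdissected areas of embryonic mouse brain was sequenced as 1 library each. According to the study's methods, adapters were trimmed with cutadapt 4.1 and read 1 alone was mapped to mm10 (GRCm38) with STAR 2.7.9a. The deposited counts are whole numbers of reads per gene, made by the authors with STAR and not normalized, which leaves out reads that map to several places or overlap more than 1 gene. The deposited table of the authors' own comparison (counts, CPM, fold change and its log10) was not used. The sources used here give no molecular identifiers, so intervals and floors cover counting error only.

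CPM was taken on gene-assigned reads of the column that ignores strand. Areas were compared by the log2 of SVZ CPM over cortex CPM, with exact 95% Clopper-Pearson intervals, and exact Poisson intervals for single levels. A count of 0 was set at 3 reads and the ratio given as a bound, though its exact interval reached nearer to equal CPM. Genes with 3 reads or fewer on both sides got no ratio. Background counts used genes whose mean reached 1 CPM and a 4-fold difference. With 1 library per area no test was possible. Levels per length (RPKM) used merged exon lengths from GENCODE M21 (GRCm38), found for 100% of list genes. The promoter windows came from RefSeq (GRCm38.p6), and 7 of the 8 genes were matched. Alternatives were DESeq2 1.42.0 size factors, edgeR 4.0.16 scaling by upper quartile or TMM, other totals, filters and folds. Python 3.11.15, numpy 2.4.6, scipy 1.17.1, matplotlib 3.10.9 and R 4.3.3 were used, and the procedures were tested on simulated data.

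The genes and gene lists were chosen with earlier results of these data known. Named in the text are the 8 subplate neuron genes, their families, the further subplate list, up to 4 of the most read genes of other lists, and neighbouring genes. Enpp2, Plppr4, Plppr5, Slc30a3, Vamp1, Oprk1, Lhx1, Lhx5, Neurog1, Ntsr1, Crym, Aif1, C1qa and Tmem119 were named after their values were seen. Some genes of these lists are not reported here by name.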

Additional observations from a re-analysis of the deposited data

How the results depend on the processing

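No paired analysis was possible because SVZ and cortex are 1 library each, which also leaves no replicate to omit. Of 73 values recomputed under an alternative, 67 stayed within the counting interval of the value, or within 1.5 times for a count. For the median, which has no counting interval, that of Inpp4b, the gene at the median, was used. The other 6 moved, and 0 changed direction. With a pseudocount of 1 CPM the log2 ratio of Hs3st4 became -6.92, that of Moxd1 1.75 and that of Tmem163 2.57, since a pseudocount draws ratios of low levels towards 0. With a mean of at least 10 CPM, which kept Nr4a2, Lpar1 and Hs3st4 alone, 1 gene was 4-fold higher in the SVZ library in place of 3, and the median log2 ratio became -2.49. At 10-fold, 1 gene was higher in the cortex library in place of 2, and 2 in the SVZ library in place of 3. With the pseudocount, 2 genes in place of 3 were 4-fold higher in the SVZ library, as Moxd1 lost its call. Scaling moved log2 ratios by at most -0.099 (upper-quartile scaling), and the sum of the stranded columns gave the same read counts for the 8 genes. Depth limits Cplx3, with 0 reads, and the SVZ level of Hs3st4, with 3 reads.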

Other observations

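The protein-coding genes next to each subplate neuron gene in GENCODE M21 (GRCm38) were read as well, as a description of the surroundings of each locus. Beside Nr4a2 lay Kcnj3, a potassium channel gene 1508685 bases away, with 209 SVZ reads and 654 cortex reads (log2 ratio -2.87, interval -3.10 to -2.64), and Gpd2, a mitochondrial dehydrogenase gene, with 4594 and 2898 reads (-0.56, -0.62 to -0.49). Moxd1 had as its right neighbour Ccn2, a gene of the further subplate list, 292652 bases away, with 61 and 2 reads (3.71, 1.79 to 6.79), and as its left neighbour Stx7, an endosomal syntaxin gene, with 8763 and 7579 reads (-1.01, -1.06 to -0.97). Moxd1 and Ccn2 were thus both higher in the SVZ library, and Stx7 was higher in the cortex library. Tmem163 overlaps Mgat5 on the other strand in the annotation. Mgat5 had 49 SVZ reads and 35 cortex reads, and the stranded columns added 0 reads to Tmem163 in either library.

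Beside Hs3st4 lay Zkscan2 (177 and 133 reads, log2 ratio -0.81, interval -1.14 to -0.47) and Kdm8 (318 and 76 reads, 0.84, 0.48 to 1.22), so neither neighbour came near its ratio. The nearest neighbour of Cplx3, Lman1l, lies 804 bases away and had 0 SVZ reads and 2 cortex reads, while Ulk3 on the other side, 3759 bases away, had 202 and 129 reads. Of the Lpar1 neighbours, Musk had 0 reads in both libraries and Olfr267 had 0 SVZ reads and 4 cortex reads.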
